A study of Mus musculus with 18 samples.

Results

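The genes described here are 9 of the 24062 genes in the count tables, and they bring inorganic sulfate into the cell, activate it and transfer it. Papss1 and Papss2 encode PAPS synthases, Slc26a2 a sulfate transporter, Slc35b2 and Slc35b3 PAPS carriers of the Golgi membrane, and Ndst1, Hs2st1, Chst11 and Tpst1 sulfotransferases. The set was chosen by the measured Papss2 level, which had been seen to be about 18-fold lower in one of the study's cell lines, and the other 8 were added by function. All 9 passed the filter on low counts and are among the 12140 genes tested. Papss2 passed it through the WT line, where its counts were the higher.

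RNA was sequenced from NIH3T3 cells, an established mouse embryonic fibroblast line. The wild-type line (WT below) was compared with a derived line, NIH3T3-mCherry-mTRIM21 (TRIM21 below), which carries mouse TRIM21 fused to mCherry. TRIM21 is a ubiquitin ligase that binds the constant region of antibodies. Cells of each line received PBS, the control protein BSA (bovine serum albumin) or antibody (IgG) by electroporation, in 2 pulses of 20 ms at 1400 V and with 7.5 µg of protein where one was given. RNA was taken 16 h later. Each of the 6 groups had 3 samples, numbered 10, 11 and 14 in the titles. Nothing in the labels says that these came from separate cultures, so p-values measure the spread between these samples, which may be technical. All TRIM21 samples come from 1 derived line, so the fusion cannot be told apart from any other difference between that line and its parent.

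Sulfate is inert until it is coupled to a nucleotide. PAPS synthases are bifunctional: an ATP sulfurylase part makes adenosine phosphosulfate and an APS kinase part phosphorylates it to phosphoadenosine phosphosulfate (PAPS), the sulfate donor of sulfotransferases. PAPS is made in the cytosol and nucleus and must be carried into the Golgi before it can serve the sulfation of proteoglycan chains or of protein tyrosines. Papss2 is best known from cartilage: the brachymorphic mouse, which has short limbs and undersulfated cartilage proteoglycans, carries a Papss2 mutation.

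Papss1 lies on chromosome 3 from 131564768 to 131643671 and Papss2 on chromosome 19 from 32595790 to 32667187, both protein coding and on the plus strand (GENCODE M21, GRCm38). The bases just before the first start of each gene in RefSeq, which for both lies before the GENCODE start, are shown because these paralogs catalyse the same reactions and differed in how their levels compared between the lines. Both are the plus strand, from RefSeq on GRCm38.p6, at chr3:131564518-131564763 for Papss1 and chr19:32595465-32595668 for Papss2, in lower case with each CpG in capitals.
Papss1: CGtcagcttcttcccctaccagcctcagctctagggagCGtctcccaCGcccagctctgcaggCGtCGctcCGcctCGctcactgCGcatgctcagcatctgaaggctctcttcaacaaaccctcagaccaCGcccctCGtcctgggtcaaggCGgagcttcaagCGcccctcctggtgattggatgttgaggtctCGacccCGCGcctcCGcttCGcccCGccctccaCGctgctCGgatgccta
Papss2: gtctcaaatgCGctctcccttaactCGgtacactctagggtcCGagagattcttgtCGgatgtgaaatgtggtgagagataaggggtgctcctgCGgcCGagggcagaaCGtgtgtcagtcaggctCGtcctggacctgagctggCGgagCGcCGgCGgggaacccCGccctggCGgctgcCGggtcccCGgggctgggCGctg
The printed Papss1 run holds 20 CpG and the printed Papss2 run holds 17. The motif CG reads the same on both strands. Each RefSeq promoter entry is set on the start of 1 transcript, and its 250 bases before that start run on past the printed end. In these 250 bases Papss2 had 24 CpG, an observed over expected ratio of 0.883, and Papss1 had 20, a ratio of 0.815. Over all 32817 promoter entries, 92.1% held at least 1 CpG in these 250 bases, with a median of 6 CpG and a median ratio of 0.373. The Papss2 ratio was higher than that of 87.2% of the entries and the Papss1 ratio higher than that of 82.2%. Entries were matched for 7 of the 9 genes, and Tpst1 had the fewest CpG among those, with 1. Both PAPS synthase promoters were therefore rich in CpG, which describes their sequence and not their use in these cells.

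The libraries held 19509017 to 29766433 reads assigned to genes, and reads outside annotated features made up 13.1% to 18.8%. Trim21, the check of the lines, had 1038 ± 63.6 CPM (TMM-scaled counts per 1e+06 reads of the tested genes, SD, n = 9) in the TRIM21 line and 8.02 ± 1.13 CPM in the WT line. All 8 fibroblast markers listed were detected, with summed levels of 17555 to 26063 CPM in the WT line and 10152 to 21583 CPM in the TRIM21 line. The TRIM21 PBS sample numbered 11 had the lowest sum, and the next lowest was 16966 CPM. All 8 had a log2 fold change below 0 (-0.47 to -0.11). Of these 8, 5 had an unadjusted p under 0.05 in edgeR, where 2600 of all 12140 genes did. EdgeR called 1 of them, Thy1, lower in the TRIM21 line, against 6.18% of all genes called in either direction. DESeq2 called Thy1 and Pdgfra, and 1040 of the 12140 genes in all. Thy1 had 619 ± 42.5 CPM in the WT line and 509 ± 59.5 in the TRIM21 line (SD, n = 9 each, edgeR adjusted p = 0.0207). That call was lost without TRIM21 BSA sample 10 (adjusted p = 0.0509, edgeR) or TRIM21 IgG sample 10 (adjusted p = 0.0547, edgeR). The markers had a median log2 fold change of -0.27, and their part in the differences between the lines was not tested. Of 8 cartilage markers, Sox9 (140 ± 16.1 CPM in the WT line) and Col11a2 (2.79 ± 0.656 CPM) were tested and neither was called, while Acan and Col2a1 had at most 3 counts in any sample. The summed cartilage markers were 115 to 163 CPM in the WT line and 134 to 174 CPM in the TRIM21 line. Markers of other cell types were low, with 1 tested gene per list and none called by edgeR or DESeq2. The 6 epithelial markers summed to 0.623 to 1.92 CPM in the WT line and 1.39 to 2.32 CPM in the TRIM21 line, most of it Krt14 (1.17 and 1.302 CPM), and Krt5 was at 0. The 6 haematopoietic markers summed to 5.30 to 7.59 and 4.92 to 8.75 CPM, most of it Cd68 (6.15 and 6.37 CPM), and Cd3e was at 0. The 5 endothelial markers summed to 0.479 to 1.38 and 0.608 to 2.65 CPM.

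Papss2 was the lower of the synthases in both lines, and far lower in the TRIM21 line than in the WT line. In the WT line after PBS, samples 10, 11 and 14 had 122, 172 and 167 Papss2 counts, or 5.43, 6.97 and 8.00 CPM. After BSA they had 106, 115 and 171 counts, or 4.62, 5.30 and 6.44 CPM. After IgG they had 119, 144 and 136 counts, or 5.53, 7.31 and 6.70 CPM. The WT samples thus held over 100 Papss2 reads each, a low level by the standard of this table, since the WT mean lay at percentile 20.0 of the 12140 genes.

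In the TRIM21 line after PBS, samples 10, 11 and 14 had 12, 3 and 10 Papss2 counts, or 0.570, 0.150 and 0.358 CPM. After BSA they had 8, 9 and 10 counts, or 0.318, 0.402 and 0.327 CPM. After IgG they had 6, 8 and 7 counts, or 0.261, 0.396 and 0.314 CPM. Every TRIM21 sample lay below every WT sample, and the lowest value came from the sample with the lowest summed fibroblast markers. Without that library the log2 fold change given below was -4.06.

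Over the 9 samples of each line, Papss2 averaged 6.25 ± 1.10 CPM in the WT line and 0.344 ± 0.114 CPM in the TRIM21 line. In all, 73 of 212967627 reads in the TRIM21 line and 1252 of 200349906 in the WT line were Papss2 reads. The level in the TRIM21 line was 18.2-fold lower (95% interval 14.4 to 23.4), or 5.49% of the WT level. That interval covers counting error only. The fitted log2 fold change was -4.16 (SE 0.163, 95% interval -4.51 to -3.82), the size ranked 14 among falls over the 12140 genes. Since this difference put Papss2 on the list, it is a description and carries no test.

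The difference was similar in size after each treatment and with each sample number. The log2 fold change of Papss2 was -4.21 after PBS, -3.96 after BSA and -4.32 after IgG. By sample number it was -3.78 for 10, -4.34 for 11 and -4.38 for 14. Leaving out each library in turn gave -4.30 to -4.06. Of all 12140 genes, 6.18% were called between the lines (edgeR adjusted p under 0.05), with 4.79% lower in the TRIM21 line and 1.39% higher, and 1.67% had every TRIM21 value below every WT value.

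**Figure D1:**
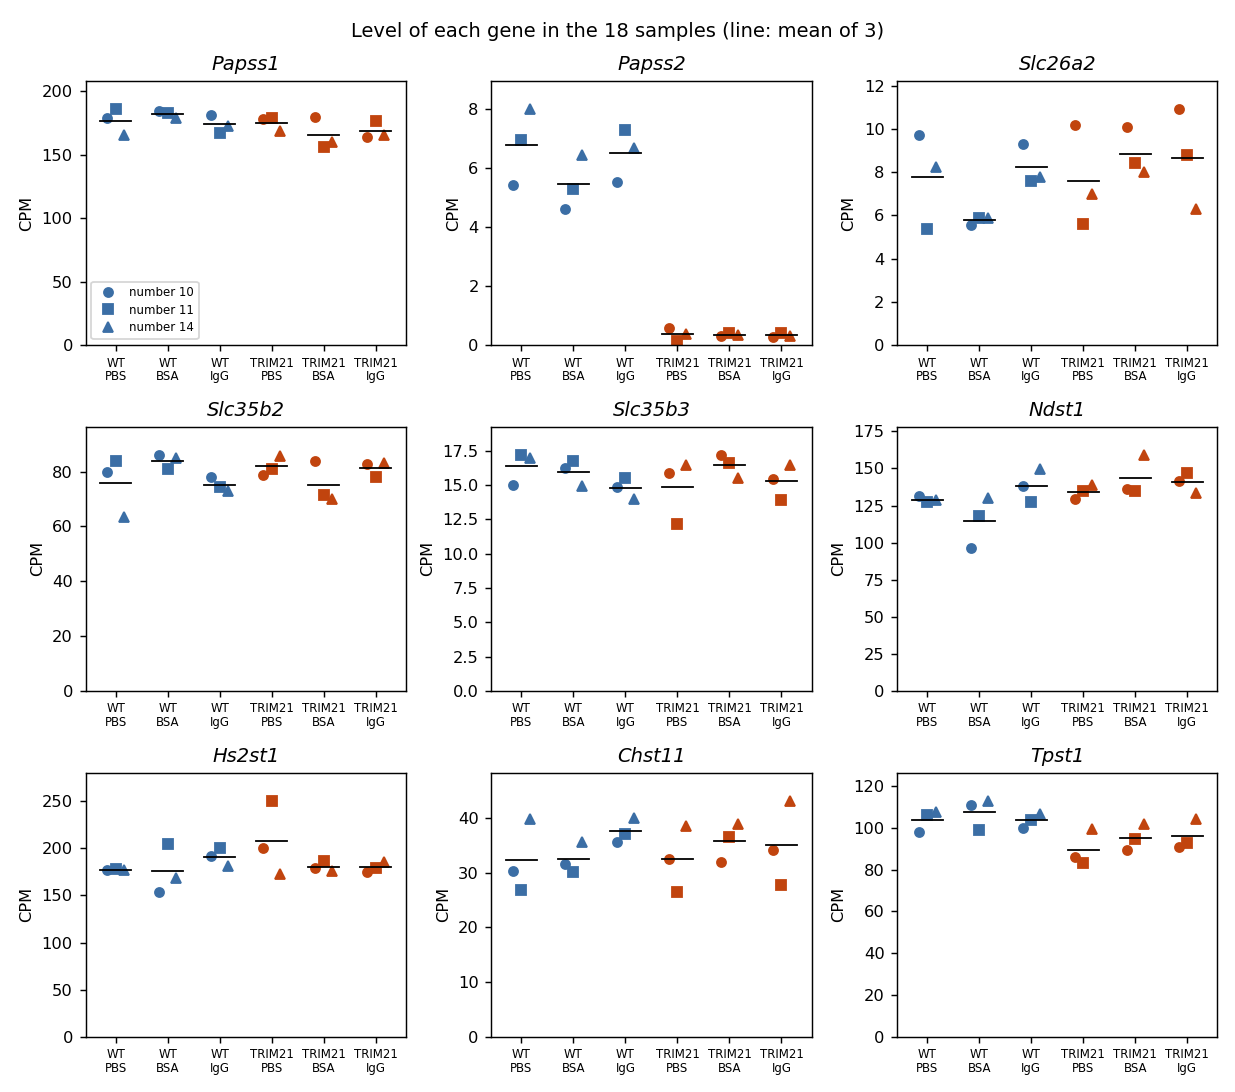
CPM of each of the 9 genes (vertical axis, from 0) in the 18 samples by line and treatment, with the sample number as the marker shape and the mean of 3 as a line. Papss2 runs from 4.62 to 8.00 CPM in the WT line and from 0.150 to 0.570 in the TRIM21 line, while the values of the other 8 genes overlap between the lines.

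Papss1, the paralog that makes the same product, stayed at a high level in both lines. In the WT line it had 179, 186 and 165 CPM after PBS, 184, 182 and 179 CPM after BSA, and 181, 167 and 173 CPM after IgG, in the order of samples 10, 11 and 14. In the TRIM21 line it had 178, 179 and 169 CPM after PBS, 179.7, 156 and 159.8 CPM after BSA, and 164, 176 and 165 CPM after IgG. The 2 lines overlapped, with 3 TRIM21 samples below every WT sample. The means were 177 ± 7.39 and 169.7 ± 8.82 CPM (SD, n = 9 each), and Papss1 was lower in the TRIM21 line in 7 of 9 pairs (1 sample of each line that match in treatment and in number; such pairs only count directions, since the numbers are not known to pair the samples). Its log2 fold change was -0.06 (95% interval -0.16 to 0.03, edgeR adjusted p = 0.432).

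The share of each paralog shows this on a scale per exon length, in CPM per kb. Papss1 and Papss2 summed to 59.8 ± 2.21 CPM per kb in the WT line and 55.7 ± 2.89 in the TRIM21 line. Papss2 made up 2.83 ± 0.581% of that sum in the WT line (2.01% to 3.82%) and 0.166 ± 0.0535% in the TRIM21 line (0.0688% to 0.262%). Per kb, Papss1 exceeded Papss2 by a median of 33.9-fold in the WT samples and 596-fold in the TRIM21 samples. Papss2 was the minor synthase transcript in both lines.

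The sulfate transporter gene Slc26a2, which is mutated in diastrophic dysplasia, was the lowest of the 9 in CPM per kb in the WT line. It ran from 5.39 to 9.70 CPM in the WT line (median 7.61) and from 5.60 to 10.9 CPM in the TRIM21 line (median 8.45). The ranges overlapped, with 3 TRIM21 samples above every WT sample, and the level was higher in the TRIM21 line in 7 of 9 pairs. Its log2 fold change was 0.22 (95% interval -0.06 to 0.50, edgeR adjusted p = 0.363). After BSA alone the WT samples had 5.58, 5.89 and 5.87 CPM and the TRIM21 samples 10.1, 8.45 and 8.01 CPM. That difference, 0.61 on the log2 scale (95% interval 0.12 to 1.10), did not pass (edgeR adjusted p = 0.359), where 0.848% of all genes did.

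The Golgi PAPS carriers had nearly the same level in both lines. Slc35b2, the main such carrier, had 78.3 ± 7.09 CPM in the WT line and 79.5 ± 5.51 CPM in the TRIM21 line. Its log2 fold change was 0.02 (95% interval -0.10 to 0.14, edgeR adjusted p = 0.859). Slc35b3 had 15.7 ± 1.11 and 15.5 ± 1.56 CPM, a log2 fold change of -0.02 (95% interval -0.16 to 0.13, edgeR adjusted p = 0.915). An antisense gene, 5033403F01Rik, overlaps exons of Slc35b3, and whether the counting used the strand is not given in the sources used here.

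The heparan sulfate enzymes were among the more abundant of the 9. Ndst1, which removes acetyl groups from glucosamine and sulfates the freed nitrogen, had 127 ± 14.6 CPM in the WT line and 139 ± 8.90 CPM in the TRIM21 line, higher in 7 of 9 pairs. Its log2 fold change was 0.13 (95% interval 0.01 to 0.26), and it did not pass over all genes (edgeR adjusted p = 0.203). The lowest of the 18 values, 96.3 CPM in WT BSA sample 10, bears on this: without that sample the log2 fold change was 0.09 (edgeR adjusted p = 0.420).

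Hs2st1 adds sulfate to the uronic acid of heparan sulfate. It had 182 ± 15.7 CPM in the WT line and 189 ± 24.4 CPM in the TRIM21 line, a log2 fold change of 0.06 (95% interval -0.08 to 0.20, edgeR adjusted p = 0.657). One value stood apart, 250.5 CPM in TRIM21 PBS sample 11, and without that library the log2 fold change was 0.01. Chst11, a sulfotransferase of chondroitin, had 34.1 ± 4.64 and 34.5 ± 5.44 CPM, a log2 fold change of 0.02 (95% interval -0.19 to 0.22, edgeR adjusted p = 0.934).

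Tpst1, which sulfates tyrosines of secreted and membrane proteins, came closest to the threshold. In the WT line it had 97.9, 106 and 108 CPM after PBS, 111, 98.9 and 113 CPM after BSA, and 100.1, 104 and 107 CPM after IgG, for samples 10, 11 and 14. In the TRIM21 line it had 86.0, 83.4 and 99.3 CPM after PBS, 89.2, 94.8 and 102 CPM after BSA, and 90.9, 92.7 and 104 CPM after IgG. It was lower in the TRIM21 line in 9 of 9 pairs, and 6 of 9 TRIM21 samples lay below every WT sample. The other 3 are those numbered 14.

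The Tpst1 means were 105 ± 5.26 and 93.6 ± 7.10 CPM, a log2 fold change of -0.17 (SE 0.0523, 95% interval -0.28 to -0.06). This missed the threshold over all genes (edgeR adjusted p = 0.0696). DESeq2 called it (adjusted p = 0.0423), and so did edgeR without TRIM21 PBS sample 14 (adjusted p = 0.0242), TRIM21 IgG sample 14 (0.0499) or WT BSA sample 11 (0.0449). Over all the omissions the edgeR adjusted p ran from 0.0242 to 0.152. With the sample number as a block it was also called (edgeR adjusted p = 0.0159).

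Of the 8 genes other than Papss2, edgeR called 0 between the lines, where 6.18% of all genes were called. DESeq2 called 1, Tpst1, where it called 1040 of the 12140 genes. With the sample number as a block edgeR also called Tpst1 (adjusted p = 0.0159), in a fit that called 1462 genes against 750 without the block. At an unadjusted p under 0.05 in edgeR there were 2, Ndst1 and Tpst1, where 2600 of all 12140 genes had one. After single treatments edgeR and DESeq2 each called 0 of these 8, with 1 (Tpst1 after PBS), 2 (Slc26a2 and Ndst1 after BSA) and 0 (after IgG) at an unadjusted p under 0.05 in edgeR. Of all genes, 1.71% were called by edgeR after PBS, 0.848% after BSA and 0.774% after IgG. DESeq2 called 451, 164 and 166 genes there. An unadjusted p under 0.05 in edgeR was had by 2409 of the 12140 genes after PBS, 1253 after BSA and 946 after IgG. The median log2 fold change of the 9 genes was 0.02, and that of all 12140 genes was 0.01.

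**Figure D2:**
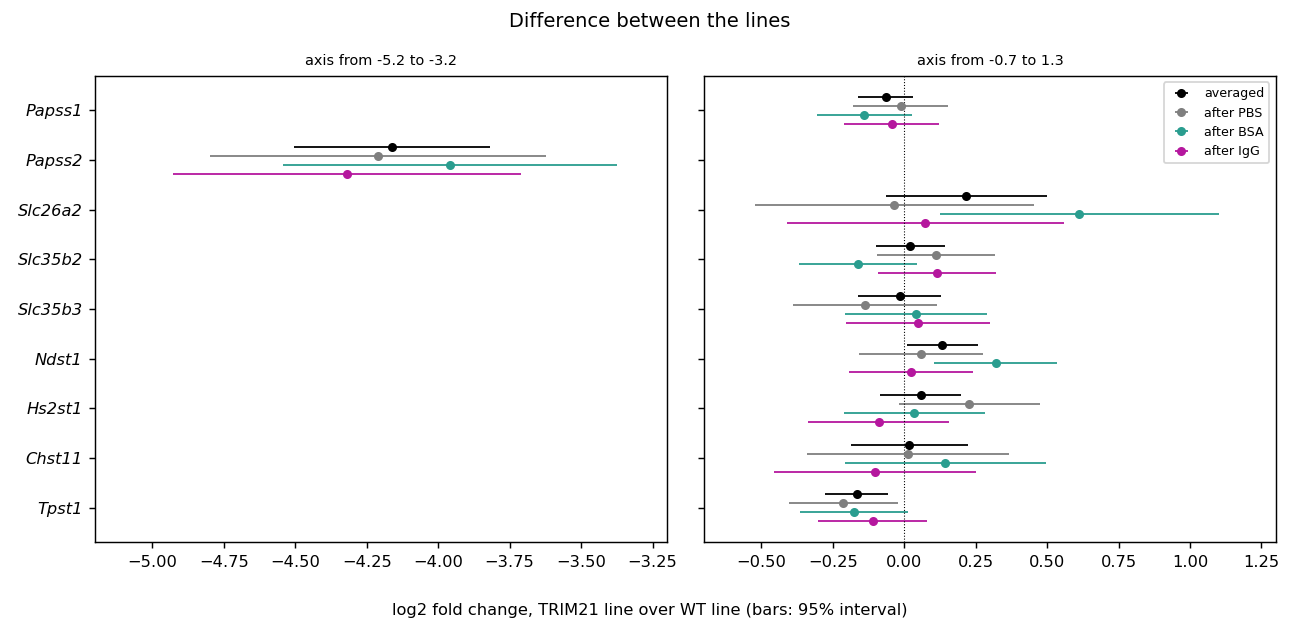
Log2 fold change of the 9 genes, TRIM21 line over WT line, averaged over treatments and after each one, with 95% intervals as bars. Each panel spans 2 log2 units on the same scale, the left one around Papss2 (-4.16 averaged) and the right one around 0, where the other 8 averaged values lie between -0.17 and 0.22.

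The order of the levels per exon length was nearly the same in both lines. In the WT line Papss1 was highest at 58.1 ± 2.42 CPM per kb, followed by Tpst1 at 37.7 ± 1.89, Slc35b2 at 25.2 ± 2.28, Hs2st1 at 22.1 ± 1.91 and Ndst1 at 15.4 ± 1.76. Chst11 followed at 6.18 ± 0.840, Slc35b3 at 2.71 ± 0.192, Papss2 at 1.68 ± 0.296 and Slc26a2 at 0.587 ± 0.133 CPM per kb. Among neighbours in this order, Slc35b2 and Hs2st1 overlapped between samples and the others did not. In the TRIM21 line Papss2 came last at 0.0924 ± 0.0306 CPM per kb, below Slc26a2 at 0.676 ± 0.148, and the other 7 kept their places. Divided by the longest annotated transcript, Slc35b3 had 6.32 CPM per kb in the WT line and passed Chst11.

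**Figure D3:**
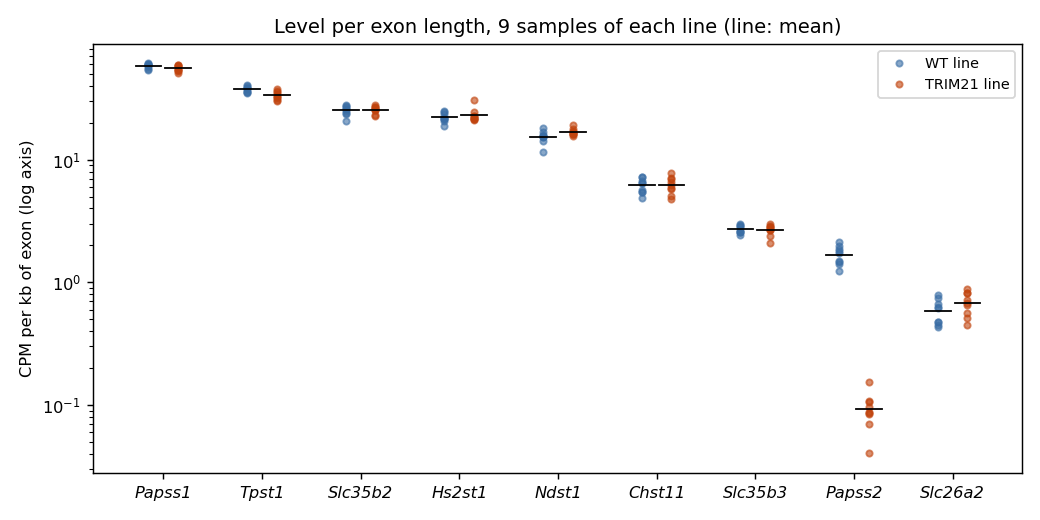
CPM per kb of exon (log axis) of the 9 genes in each sample of the WT and TRIM21 lines, with the mean of 9 as a line, ordered by the WT mean. Papss1 lies highest in both lines, and Papss2 drops from 1.68 to 0.0924 CPM per kb, from above Slc26a2 to below it.

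The treatments were compared within each line to ask whether antibody or protein in the cytosol was followed by a change in these genes. Over 9 genes and 9 comparisons, 6 within lines and 3 of the difference between lines, edgeR called 0 of 81, and 0% of the 12140 genes were called in any of them. Over all genes, between 45 and 790 had an unadjusted p under 0.05 in a comparison. The smallest adjusted p among the 81 was 0.651 (edgeR), and 2 had an unadjusted p under 0.05. DESeq2 also called 0 of the 12140 genes in each and 0 of 81 here, with a smallest adjusted p of 0.646.

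In the TRIM21 line Papss2 averaged 0.359 ± 0.210 CPM with PBS, 0.349 ± 0.0465 with BSA and 0.324 ± 0.0678 with IgG (SD, n = 3 each). IgG against PBS there gave a log2 fold change of -0.17 (95% interval -1.05 to 0.71, edgeR adjusted p = 0.907), a wide interval that reflects 3 to 12 counts per sample. In the WT line Papss2 was 6.80 ± 1.29, 5.45 ± 0.918 and 6.51 ± 0.905 CPM, and IgG against PBS gave -0.06 (95% interval -0.48 to 0.36). For Papss1, which had 3296 to 4888 counts per sample, IgG against PBS gave -0.06 in the TRIM21 line (95% interval -0.22 to 0.11) and -0.02 in the WT line (95% interval -0.19 to 0.14). These intervals of Papss1, and that of Papss2 in the WT line, leave out a change of 1.5-fold, and that of Papss2 in the TRIM21 line does not.

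The comparisons with an unadjusted p under 0.05 were both IgG against BSA in the WT line. Ndst1 had 96.3, 118 and 130.03 CPM after BSA and 138, 127 and 149.8 CPM after IgG, a log2 fold change of 0.27 (95% interval 0.05 to 0.49, edgeR adjusted p = 0.741). Slc26a2 had 9.29, 7.61 and 7.79 CPM after IgG, against the BSA values given above, a log2 fold change of 0.51 (95% interval 0.02 to 1.00, edgeR adjusted p = 0.741). These share the WT BSA samples with the line comparison after BSA.

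The rest of the route was read from 10 lists of genes of sulfur metabolism, sulfation and its substrates. Apart from the 9 genes, 71 listed genes were tested, of which 3 were called higher in the TRIM21 line and 7 lower, and their median log2 fold change was -0.05. The 3 called higher include Chst1, whose call is no support for a rise, as given below. That is 14.1% called and 9.86% called lower, against 6.18% and 4.79% of all genes. The lists were chosen with earlier results of these data known, so these shares and those of single lists below are a description. In the first list, PAPS synthesis and turnover, the enzymes that break down the product were not called. Bpnt1, the cytosolic phosphatase that clears what is left of PAPS after transfer, had 25.8 ± 2.49 and 27.9 ± 4.89 CPM. Impad1, its Golgi counterpart, had 124 ± 18.3 and 129 ± 11.96 CPM. Among 5 tested transporters of 8 listed, edgeR and DESeq2 called 0. Of these 5, 0 had an unadjusted p under 0.05 in edgeR, where 2600 of all 12140 genes did.

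Of the 8 tested genes on the route from cysteine to sulfate, 1 was called. Cdo1, the dioxygenase that starts cysteine oxidation, fell from 7.78 ± 2.57 to 2.51 ± 0.866 CPM, a log2 fold change of -1.62 (SE 0.214, edgeR adjusted p = 6.80e-05). It was lower in 9 of 9 pairs, and the lines did not overlap. Suox, the oxidase that forms sulfate from sulfite, had 10.0 ± 1.10 and 9.88 ± 0.872 CPM and was not called.

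Of 17 tested sulfotransferases on 4 lists, 2 were called, or 11.8%, against 6.18% of all genes. These 2 include Chst1, whose call is no support for a rise, as given in the next paragraph. Called lower were 5.88%, against 4.79% of all genes. Of 6 tested heparan sulfate enzymes, Ndst3, a relative of Ndst1, fell from 1.53 ± 0.254 to 0.829 ± 0.221 CPM (log2 fold change -0.90, edgeR adjusted p = 0.00383), with no overlap between the lines. Of 15 such genes listed, 6 had no counts in any sample. Of 6 tested chondroitin and dermatan enzymes, edgeR and DESeq2 called 0, and their median log2 fold change was -0.12. At an unadjusted p under 0.05 in edgeR there was 1 (Ust, named after its values were seen), against 2600 of all 12140 genes. Of 4 other Golgi sulfotransferases, Chst1, which sulfates keratan sulfate, had 0.288 ± 0.0894 CPM in the WT line and 0.503 ± 0.125 in the TRIM21 line (log2 fold change 0.80, edgeR adjusted p = 0.0235).

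Chst1 rested on 4 to 15 counts per sample and passed the filter on low counts only through the TRIM21 line, where it is the higher: 5 TRIM21 samples and 0 WT samples reached the level of 0.451 CPM that the filter asks. Passing this way favours a gene that is higher there, so the call is no support for a rise. Its adjusted p was 0.0741 in DESeq2, and in edgeR 0.0523 without TRIM21 BSA sample 10, 0.0601 without TRIM21 IgG sample 14 and 0.0514 without WT IgG sample 11. Of 11 cytosolic sulfotransferases, which use PAPS without Golgi import, 7 had no counts and only Sult6b1 passed the filter on low counts.

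Among the carriers of sulfated chains, 17 of 24 core protein genes were tested, with 2 called higher and 3 lower (29.4% called, against 6.18% of all genes). Lumican (Lum), a keratan sulfate proteoglycan, fell from 2.07 ± 0.808 to 0.343 ± 0.181 CPM (log2 fold change -2.54, edgeR adjusted p = 5.26e-05), with no overlap. Brevican (Bcan) fell from 1.06 ± 0.259 to 0.574 ± 0.172 CPM (log2 fold change -0.87, edgeR adjusted p = 0.0103). Glypican-1 (Gpc1), a heparan sulfate carrier, rose from 80.5 ± 15.2 to 114 ± 15.6 CPM (log2 fold change 0.51, edgeR adjusted p = 0.00499).

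Cspg4 rose from 103 ± 16.0 to 132 ± 18.5 CPM (edgeR adjusted p = 0.0363), a call lost in 10 of 18 omissions of 1 library (adjusted p 0.0551 to 0.0894). The third core protein called lower, outside the rule for named genes and named after its values were seen, was Gpc4 (log2 fold change -0.23). The most abundant ones, biglycan (Bgn, 3647 ± 488 and 3524 ± 363 CPM) and versican (Vcan, 2233 ± 405 and 2216 ± 477 CPM), were not called. Of the 17 tested genes that build the sugar chains, edgeR and DESeq2 called 0, and their log2 fold changes ran from -0.11 to 0.23. At an unadjusted p under 0.05 in edgeR there was 1, against 2600 of all 12140 genes.

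Of 12 tested sulfatases and activators, the 2 called (16.7%, against 6.18% of all genes) were both endosulfatases, which remove sulfate from heparan sulfate outside the cell. Sulf1 fell from 2.73 ± 0.259 to 1.41 ± 0.266 CPM (log2 fold change -0.95, edgeR adjusted p = 1.87e-05), with no overlap. Sulf2 fell from 20.8 ± 3.77 to 15.6 ± 2.40 CPM (log2 fold change -0.41, edgeR adjusted p = 0.0362), a call lost in 11 of 18 omissions of 1 library (adjusted p 0.0560 to 0.0972). The genes called lower on these lists did not share 1 step: they lie in sulfate supply, heparan sulfate sulfation and desulfation, and proteoglycan cores.

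**Figure D4:**
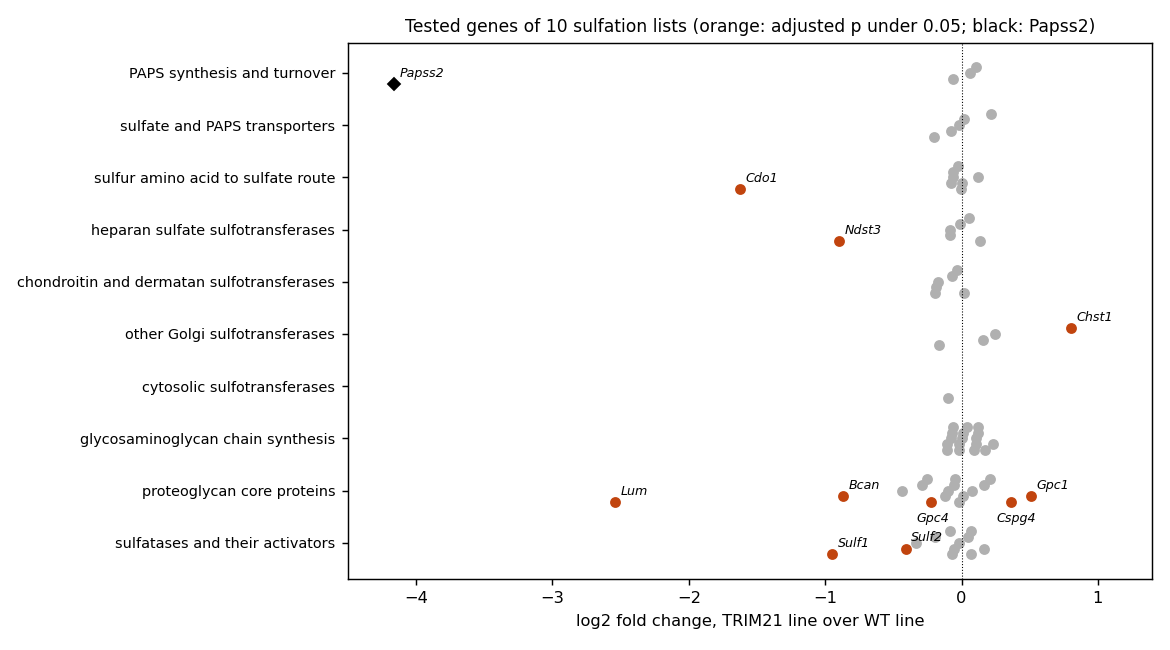
Log2 fold change, TRIM21 line over WT line, of each tested gene on 10 sulfation lists, 1 row per list, with genes at adjusted p under 0.05 in orange and Papss2 as a black diamond. Most points lie near 0, and Papss2 (-4.16), Lum (-2.54) and Cdo1 (-1.62) lie farthest to the left.

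Of the genes beside Papss2 on chromosome 19, the nearest after it and 3 before it are given, and their differences were small. Atad1, a membrane ATPase gene 4.45 kb after the end of Papss2, had 129 ± 9.81 CPM in the WT line and 132 ± 10.95 in the TRIM21 line (log2 fold change 0.03, SE 0.0574, edgeR adjusted p = 0.798). On the other side, Minpp1 lies 80.4 kb before Papss2 (log2 fold change 0.09, edgeR adjusted p = 0.347). Farther off, Sgms1 had a log2 fold change of 0.08 (edgeR adjusted p = 0.590) and 2700046G09Rik, which overlaps the start of Sgms1 on the opposite strand, one of -0.21 (edgeR adjusted p = 0.464). Of 428 other tested genes on chromosome 19, 11 were called between the lines by edgeR, or 2.57%, with 5 higher and 6 lower. Over all genes 6.18% were called, 1.39% higher and 4.79% lower.

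**Figure D5:**
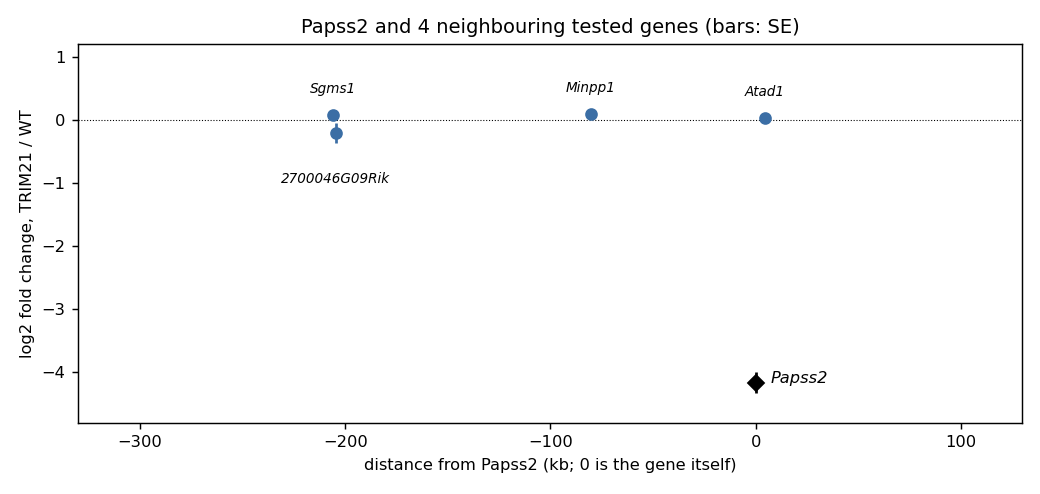
Log2 fold change, TRIM21 line over WT line, of Papss2 (black diamond) and 4 neighbouring tested genes on chromosome 19, with SE bars, against distance in kb. The neighbours lie between -0.21 and 0.09, and Papss2 lies at -4.16.

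The genes whose log2 CPM was most like that of Papss2 over the 18 samples were Rian (Pearson r = 0.992), Meg3 (0.992), Rgag4 (0.984), Lama2 (0.984) and Asb4 (0.984). The samples form 2 clusters by line, so r mostly measures a shared gap between the lines and is given as a description. Rian and Meg3 are noncoding RNAs of an imprinted cluster on chromosome 12, and Meg3 had 162 ± 32.5 CPM in the WT line and 9.97 ± 2.10 CPM in the TRIM21 line. Lama2, a laminin chain gene, had 8.93 ± 1.92 and 0.298 ± 0.144 CPM. With Spearman's rho, 0 of these 5 were among the first 5. Of the 8 other members, Tpst1 had the highest r with Papss2 (0.709) and Papss1 had 0.402. The genes most like Papss1 were Fhl2 (0.874), Tagln (0.857) and Dnmt3l (0.855).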

How the data were processed

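Whole-number read counts per gene were deposited by the authors for 18 samples, 1 table each, and are not normalized. Per the submitters' processing notes, the tools were bcl2fastq 2.19.1.403, FastQC 0.11.5, STAR 2.5.1b, HTSeq 0.6.0 and DESeq2 1.6.3, and the build was mm10. The annotation and the strand setting of the counting are not given in the sources used here. Rows that name no gene stayed out of library sizes and tests; the no-feature row held 13.1% to 18.8% of reads.

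From these counts, genes were filtered with filterByExpr (minimum count 10, minimum total 15), which left 12140 of 24062. One model of the 6 groups was fitted with edgeR 4.0.16 (R 4.3.3, TMM factors 0.977 to 1.034, quasi-likelihood test, Benjamini-Hochberg adjustment over all genes tested, threshold 0.05), and 13 contrasts were read from it. The script was tested on simulated data. CPM are counts scaled to 1e+06 reads of the 12140 tested genes, with each library size multiplied by its TMM factor. CPM per kb divide by the length of merged exons. SE and 95% intervals come from the same test. Symbols were matched to GENCODE M21, 22750 directly and 916 through older symbols, and 396 were not matched. Correlations used log2 CPM with a prior count of 2.

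The 9 genes and the lists were chosen with earlier results of these data known. Beyond the 9, genes are named where they are up to 4 per list with the largest change at an adjusted p under 0.05, the 5 most like Papss2 and 3 most like Papss1, or neighbours of Papss2 (the 3 nearest tested before it and the nearest after it; others that the rule would name are not reported here); a few uncalled genes and Gpc4 are named besides. Alternatives were no filter, at least 10 counts in every sample, DESeq2 1.42.0 and its size factors, a block on the sample number, a fit of only the groups compared, transcript length, Spearman's rho and leaving out each library.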

Additional observations from a re-analysis of the deposited data

How the results depend on the processing

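The count of genes called between the lines moved most. Averaged over treatments it was 750, with 1040 in DESeq2. Leaving out 1 library gave 500 (without TRIM21 IgG sample 10) to 1244 (without TRIM21 PBS sample 14). After PBS it was 208, with 132 when at least 10 counts were asked in every sample, 451 in DESeq2, 47 when only the groups compared were fitted, and without 1 library 98 (WT PBS sample 14) to 1014 (TRIM21 PBS sample 14), with 116 without TRIM21 PBS sample 11. After BSA it was 103, with 53, 164 in DESeq2, and without 1 library 65 (TRIM21 BSA sample 10) to 135, with 67 without TRIM21 BSA sample 14 or WT BSA sample 14. After IgG it was 94, with 57, 166 in DESeq2, 189 with only the groups compared, and without 1 library 66 to 146 (TRIM21 PBS sample 11). Of the 8 members other than Papss2, DESeq2 and the block each called 1, Tpst1, and leaving out 1 library gave 0 to 1. In the treatment comparisons and their differences between lines, 0 members were called under every alternative run. Asking at least 10 counts in every sample removed Papss2, Chst1, Lum and Bcan from the test.

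The sample numbers were tried as a pairing. Deviations from group means correlated with a mean r of 0.218 over 45 pairs with the same number (-0.323 to 0.578, 32 over 0.1) and of -0.109 over 90 pairs with different numbers. The rule asked every pair with the same number to pass 0.1, which is strict, and not every pair did. The main fit therefore has no block, which does not show that the values are unrelated to the numbers. The counts of matching pairs given with the genes describe direction and enter no test. With the number as a block, 1462 genes were called averaged over treatments (526 higher, 936 lower, against 169 and 581), 847 after PBS, 187 after BSA and 173 after IgG.

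Members with small differences changed sign when 1 library was left out: Slc35b2 (range -0.0156 to 0.0479), Slc35b3 (-0.0436 to 0.0244) and Chst11 (-0.0417 to 0.0778). Their values with the other sign were -0.007 and -0.0156 for Slc35b2, 0.0244 and 0.004 for Slc35b3, and -0.030, -0.004, -0.0417, -0.022 and -0.004 for Chst11. Of 548 values of single genes under these alternatives, 507 counted as unchanged. That means the direction and the side of the threshold were kept. For Papss2, which has no test, it means a move of less than its SD within groups. DESeq2's size factors moved the median of all genes by 0.0047 (log2). The cause was not tested for any of these. Depth limits Papss2 most, at 3 to 12 counts per TRIM21 sample.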

Other observations

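Some members followed the sample number across groups. Chst11 and Tpst1 were each highest in the sample numbered 14 in 6 of 6 groups, Hs2st1 was highest in the sample numbered 11 in 5 of 6, and Slc26a2 was highest in the sample numbered 10 in 5 of 6. Papss2 was lowest in the sample numbered 10 in 5 of 6 groups, including all 3 WT groups. How many of all genes show such an order was not counted, so it cannot be called particular to these genes. Over the tested genes, deviations from group means correlated with a mean r of 0.218 between samples with the same number. What the numbers stand for is not given in the sources used here.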
